A study of Mus musculus with 2 samples.

Results

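The genes described here make cholesterol, control its supply and move it between membranes: 33 of the 43346 gene rows in the tables. They were chosen by name as a list of pathway genes, with earlier results of these data known but no threshold on measured values. All 33 matched a row on gene ID. They comprised 19 synthesis enzymes, 7 regulators and 7 genes of transport, storage and turnover. Total RNA had been sequenced from the neural tube of newborn mice of the B6NCrl strain at postnatal day 0. Each of 2 pups from 1 litter gave a single neural tube and 1 library, so the series formed 1 group (n = 2) with no treatment, mutant or control. The labels gave 1 donor identifier for both libraries, while the sample descriptions numbered the pups separately.

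Cholesterol is built from acetyl-CoA through mevalonate and squalene to lanosterol, which is trimmed and reduced to the final sterol. The blood-brain barrier blocks lipoprotein cholesterol, so the central nervous system makes its own, and myelinating glia use large amounts for their sheaths. SREBP transcription factors are held in the endoplasmic reticulum by SCAP and INSIG proteins when sterol is plentiful and turn on the synthesis genes when it is scarce. LXR receptors respond to oxidised sterols and turn on the exporters.

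Gene rows held 40003518 expected counts in pup 2, 1.49 times the 26916916 in pup 1. The 4 Hox genes listed for trunk position all reached a TPM of 10 in both pups, with Hoxc8 at 52.0 TPM in pup 2 and 22.8 in pup 1 and Hoxd10 at 63.2 in pup 2 and 105 in pup 1, whereas none of the 4 listed forebrain genes reached a TPM of 1, and Otx2 and Nkx2-1 had 0 counts in both. TPM, the deposited abundance, is a level per transcript length scaled to the same total in each library. Summed TPM over 6 myelinating oligodendrocyte markers was 595 in pup 2 and 343 in pup 1, and over 4 meningeal markers 2527 in pup 2 and 1189 in pup 1, of which Ptgds alone held 2190 in pup 2 and 922 in pup 1. Of 5 sensory ganglion markers, 4 passed 1.5-fold higher in pup 2, with a median log2 ratio of pup 2 over pup 1 of 2.79, while their summed TPM, 234 in pup 2 and 160 in pup 1, lay mostly in Prph and Calca. Sums of the neuron, astrocyte, oligodendrocyte precursor, microglia, endothelium and Schwann cell markers were 2618, 1300, 214, 197, 130.0 and 196 in pup 2, against 2832, 1358, 196, 187, 157 and 197 in pup 1. The part of these differences in any value below was not tested. In bulk tissue, fewer cells of a type and less RNA per cell cannot be told apart.

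The cholesterol genes were expressed throughout, with the synthesis enzymes highest. All 33 reached a TPM of 1 in both pups, against 63.8% of 21474 protein-coding genes and 35.5% of all gene rows. At a TPM of at least 10 there were 30 genes, against a background of 40.5%; at 50, 14 genes against 14.8%; and at 100, 6 genes against 7.44%. The median of the 33 mean levels was 43.2 TPM (pup medians of 44.5 in pup 2 and 42.0 in pup 1, SD 1.83, n = 2). The median over protein-coding genes was 5.51 TPM, and 17.7 TPM over the 13698 that reached a TPM of 1 in both pups. By class the median was 65.3 TPM for enzymes, 43.2 TPM for regulators and 23.5 TPM for transport genes. Together the 33 genes held 2142 TPM in pup 2 and 2217 TPM in pup 1, of which the enzymes held 1684 TPM in pup 2 and 1735 TPM in pup 1.

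**Figure D1:**
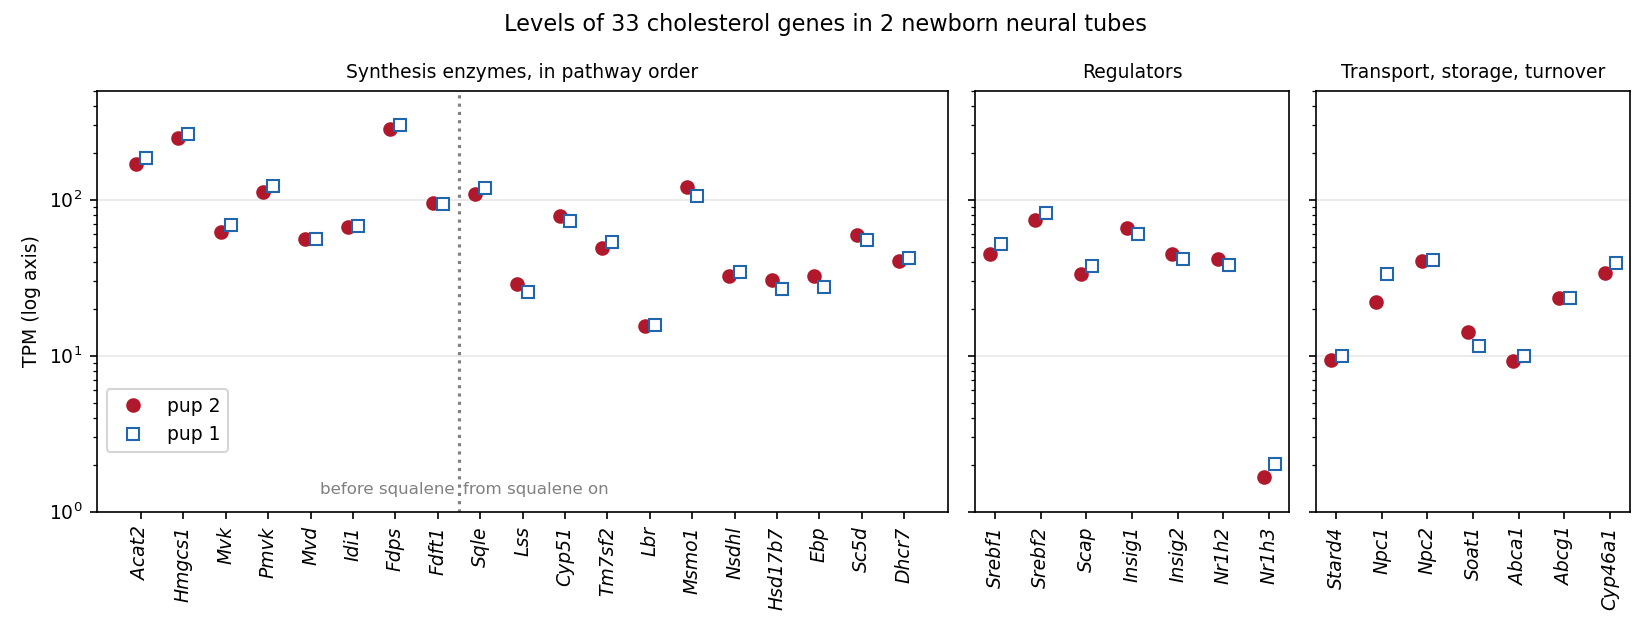
Level of each of the 33 genes, in TPM on a log axis, with genes grouped as enzymes in pathway order, regulators and transport genes; points are the pups. Fdps and Hmgcs1 stand highest, Nr1h3 lowest at 1.67 TPM in pup 2 and 2.03 TPM in pup 1, and the gap between the pups is widest for Npc1.

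The early enzymes, which turn acetyl-CoA into mevalonate and then into squalene, summed to 1089 TPM in pup 2 and 1159 TPM in pup 1, the larger share of the enzymes' TPM. The level of Acat2, which joins acetyl-CoA units, was 168 TPM in pup 2 and 185 TPM in pup 1. Hmgcs1, the cytosolic HMG-CoA synthase, stood at 249 TPM in pup 2 and 264 TPM in pup 1 and lay at percentile 97.4 of protein-coding genes. Both genes were above the enzyme median in each pup. The kinases that phosphorylate mevalonate differed in level: Mvk had 61.8 TPM in pup 2 and 68.7 TPM in pup 1. For Pmvk, the next kinase, the values were 111 TPM in pup 2 and 122 TPM in pup 1. Mvd, the decarboxylase that makes isopentenyl diphosphate, had 56.0 TPM in pup 2 and 55.8 TPM in pup 1. Idi1, the isomerase of that product, was close by, with 67.2 TPM in pup 2 and 67.8 TPM in pup 1. Fdps, farnesyl diphosphate synthase, (chr3:89093588-89101959, minus strand, GRCm38) was the highest of the 33 genes, with 282 TPM in pup 2 and 302 TPM in pup 1 (mean 292 ± 14.3, SD, n = 2). Its product also feeds protein prenylation and other isoprenoids. Fdft1, squalene synthase and the first enzyme committed to sterols, had 94.7 TPM in pup 2 and 93.7 TPM in pup 1. Fdps thus stood about 3-fold above the enzyme that follows it, while the pups did not overlap between these genes.

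The later enzymes, from squalene to the finished sterol, had a lower median: 41.3 TPM over 11 genes (40.6 in pup 2 and 42.0 in pup 1), against 105 TPM over the 8 early ones (103 in pup 2 and 108 in pup 1). The early median exceeded the later one in each pup. Sqle, squalene epoxidase, had 108 TPM in pup 2 and 118 TPM in pup 1. Lss, which closes the rings to form lanosterol, had 28.8 TPM in pup 2 and 25.4 TPM in pup 1. Cyp51, the lanosterol demethylase, had 78.1 TPM in pup 2 and 72.6 TPM in pup 1. Sqle and Cyp51 therefore flanked an enzyme gene at a much lower level, and the pups did not overlap between these genes. The reductase acting next is encoded by Tm7sf2, at 48.8 TPM in pup 2 and 53.2 TPM in pup 1, and by Lbr, at 15.4 TPM in pup 2 and 15.8 TPM in pup 1. Lbr also anchors chromatin and lamin B at the nuclear envelope, and it was the lowest of the 19 enzymes over all transcripts. Over protein-coding transcripts Lss was lower, with 12.6 TPM in pup 2 and 11.8 TPM in pup 1, against 14.2 TPM in both pups for Lbr.

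The 3 genes of the demethylation steps differed among themselves. Msmo1, the methylsterol oxidase, had 121 TPM in pup 2 and 105 TPM in pup 1. Its partner Nsdhl, the decarboxylating dehydrogenase, had 32.2 TPM in pup 2 and 34.4 TPM in pup 1. Hsd17b7, the ketoreductase of the same complex, had 30.4 TPM in pup 2 and 26.8 TPM in pup 1. Msmo1 thus stood above both partners in each pup, and also over protein-coding transcripts, with 76.1 TPM in pup 2 and 63.5 TPM in pup 1 beside 32.1 TPM in pup 2 and 34.4 TPM in pup 1 for Nsdhl. Ebp, the sterol isomerase, had 32.3 TPM in pup 2 and 27.7 TPM in pup 1. Sc5d, the desaturase, had 59.3 TPM in pup 2 and 55.1 TPM in pup 1. Dhcr7, the reductase lost in Smith-Lemli-Opitz syndrome, had 40.6 TPM in pup 2 and 42.0 TPM in pup 1. The last steps therefore ran between 27.7 and 59.3 TPM, all under the early median.

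Among the regulators, the SREBP and INSIG genes were well expressed and 1 of the LXR genes was near the bottom of the list. Srebf2, the SREBP gene best known for cholesterol synthesis, had 73.8 TPM in pup 2 and 82.3 TPM in pup 1. Srebf1, better known for fatty acid synthesis, had 45 TPM in pup 2 and 52.0 TPM in pup 1. The order of these genes was the same in each pup, and the ratio of Srebf2 to Srebf1 was 1.64 in pup 2 and 1.58 in pup 1. Scap, the escort that carries SREBPs to the Golgi, had 33.1 TPM in pup 2 and 37.8 TPM in pup 1. Insig1, the retention protein that is itself an SREBP target, had 65.6 TPM in pup 2 and 59.8 TPM in pup 1. Insig2, the second retention protein, had 44.5 TPM in pup 2 and 41.9 TPM in pup 1, so the Insig1 to Insig2 ratio was 1.47 in pup 2 and 1.43 in pup 1. Nr1h2 encodes LXR beta, the broadly expressed LXR, and had 41.7 TPM in pup 2 and 38.2 TPM in pup 1. Nr1h3 encodes LXR alpha and had 1.67 TPM in pup 2 and 2.03 TPM in pup 1, from 76 counts in pup 2 and 55 in pup 1. Nr1h2 exceeded Nr1h3 25-fold in pup 2 and 18.8-fold in pup 1 (mean 21.9 ± 4.37, SD, n = 2).

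Promoter sequences were read for the genes that RefSeq windows covered, since SREBPs act there with NF-Y as a partner. A window of 300 bases, from 250 before to 50 after the RefSeq start on GRCm38.p6, matched 27 of the 33 genes, and 6 of these had several windows, up to 3. Among the enzymes 16 had a window, while Fdps, Fdft1 and Sqle had none and were not searched. A gene was counted once if any of its windows held the letters. The sterol regulatory element-like letters TCACNCCAC, searched on both strands, occurred in 1 of the 27, Hmgcs1, and in 1.44% of 27025 genes with a window. In Hmgcs1 they began at position -137 from the start, which counts as 0, on the forward strand. The shorter TCACNCCA, which every TCACNCCAC match contains and which was added after seeing the data, occurred in 3 (Hmgcs1, Msmo1 and Srebf2) and in 4.97% of genes, and began at -162 in Srebf2. The windows of Hmgcs1 (chr13:119690101-119690400), Srebf2 (chr15:82147019-82147318) and Insig1 (chr5:28071162-28071461), all on the plus strand, are shown as those of an enzyme of mevalonate synthesis, of the SREBP gene and of its feedback partner. Capitals mark TCACNCCA, with its final C where present, and ATTGG, the reverse complement of the NF-Y box CCAAT.
Hmgcs1: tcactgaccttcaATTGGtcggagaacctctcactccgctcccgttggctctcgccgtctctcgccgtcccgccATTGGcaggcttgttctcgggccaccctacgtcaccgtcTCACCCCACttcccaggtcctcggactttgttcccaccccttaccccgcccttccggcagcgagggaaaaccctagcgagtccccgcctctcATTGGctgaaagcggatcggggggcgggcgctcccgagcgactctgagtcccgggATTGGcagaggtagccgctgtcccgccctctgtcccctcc
Srebf2: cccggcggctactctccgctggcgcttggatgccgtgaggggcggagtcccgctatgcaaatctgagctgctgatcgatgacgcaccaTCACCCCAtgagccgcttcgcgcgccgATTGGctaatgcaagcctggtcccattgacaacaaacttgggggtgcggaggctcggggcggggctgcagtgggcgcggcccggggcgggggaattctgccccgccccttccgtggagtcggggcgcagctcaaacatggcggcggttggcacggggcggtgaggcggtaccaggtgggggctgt
Insig1: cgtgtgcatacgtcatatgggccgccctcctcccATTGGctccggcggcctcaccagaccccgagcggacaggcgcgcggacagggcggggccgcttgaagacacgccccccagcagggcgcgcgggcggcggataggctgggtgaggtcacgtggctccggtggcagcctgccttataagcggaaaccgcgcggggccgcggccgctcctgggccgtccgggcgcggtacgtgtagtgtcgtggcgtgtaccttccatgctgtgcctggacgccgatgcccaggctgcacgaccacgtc
The Hmgcs1 window held the NF-Y box 4 times, at -237, -176, -45 and 10, and the Srebf2 and Insig1 windows held it once each.

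The NF-Y box CCAAT, on either strand, occurred in 22 of the 27 genes (81.5%), and in 15 of the 16 enzyme genes. It was found in 41.1% of all 27025 genes, and in 43.7% of the 6942 protein-coding genes with a window and 10 TPM or more in both pups. Per window it was in 23 of 36 (63.9%), against 37.4% of all windows. The GC box GGGCGG occurred in 24 genes (88.9%), against 38.2% of all genes and 71.9% of those 6942 genes, and per window in 28 of 36 (77.8%), against 35.7%. The E-box CACGTG occurred in 6 genes (22.2%), against 8.09% and 12.2%. A stricter form, with an A in front of TCACNCCAC and C as the free letter, occurred in none of the 27, against 0.0999% of all genes, and the LXR repeat, AGGTCA repeated directly after 4 free letters, in none, against 0.0148%. These counts describe letters in the window and do not show binding.

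Among transport genes, Npc2 and Cyp46a1 were highest by mean TPM and Abca1, Stard4 and Soat1 lowest. Npc2, the soluble lysosomal protein that hands cholesterol to Npc1, had 40.7 TPM in pup 2 and 41.2 TPM in pup 1. Npc1, the membrane partner, had 22.1 TPM in pup 2 and 33.2 TPM in pup 1, the widest gap between pups relative to its level among the 33 genes. Cyp46a1, a neuronal enzyme that hydroxylates cholesterol so that it can leave the brain, had 34.0 TPM in pup 2 and 39.1 TPM in pup 1. Abcg1, an exporter to lipoprotein particles, had 23.4 TPM in pup 2 and 23.5 TPM in pup 1, above Npc1 in pup 2 and below it in pup 1. Over protein-coding transcripts Abcg1 was above Npc1 in both pups. Abca1, which loads lipid-poor apolipoproteins, had 9.21 TPM in pup 2 and 9.97 TPM in pup 1, so the Abca1 to Abcg1 ratio was 0.394 in pup 2 and 0.424 in pup 1. Soat1, which esterifies cholesterol for storage, had 14.3 TPM in pup 2 and 11.5 TPM in pup 1. Stard4, a soluble sterol carrier, had 9.33 TPM in pup 2 and 9.90 TPM in pup 1. Abca1 and Stard4 did not differ beyond their spread over the pups (9.59 ± 0.537 and 9.62 ± 0.403 TPM, SD, n = 2).

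**Figure D2:**
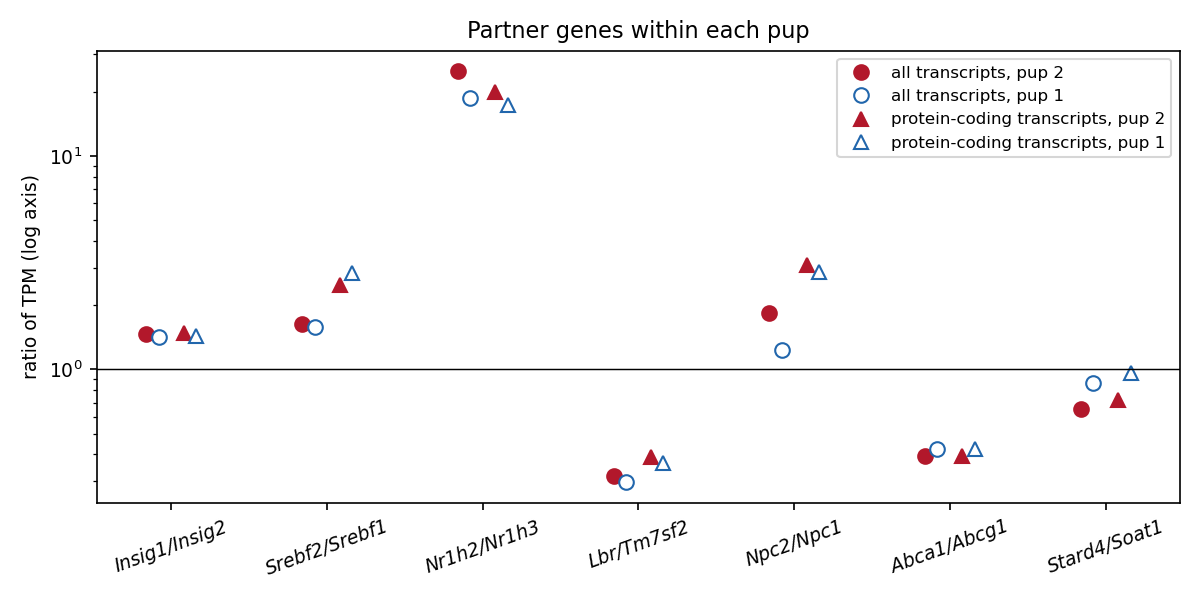
Ratio of TPM between 7 pairs of related genes within each pup, on a log axis; red marks are pup 2 and open blue marks pup 1, with all transcripts as circles and protein-coding transcripts as triangles. Insig1 over Insig2 was 1.47 in pup 2 and 1.43 in pup 1, while Npc2 over Npc1 was 1.84 in pup 2 and 1.24 in pup 1.

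The spread of the pair ratios depended on the measure. By TPM, the ratios of Insig1 to Insig2 (1.45 ± 0.0328), Srebf2 to Srebf1 (1.61 ± 0.0427), Lbr to Tm7sf2 (0.306 ± 0.0138) and Abca1 to Abcg1 (0.409 ± 0.0212, SD, n = 2 each) varied between the pups by under 10% of their mean. Those of Npc2 to Npc1 (1.54 ± 0.427), Stard4 to Soat1 (0.759 ± 0.149) and Nr1h2 to Nr1h3 varied more. Over protein-coding transcripts, a measure added after seeing the data, Npc2 to Npc1 was 2.98 ± 0.142 and Srebf2 to Srebf1 was 2.65 ± 0.238. By counts not divided by length, Npc2 to Npc1 was 1.63 ± 0.141, Stard4 to Soat1 was 0.817 ± 0.0444 and Insig1 to Insig2 was 2.31 ± 0.236 (SD, n = 2 each).

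Between the pups, the cholesterol genes differed little. Log2 ratios of pup 2 over pup 1 were taken from TMM-scaled counts for the 32 genes whose count averaged 100 or more, all but Nr1h3. They ran from -0.13 for Cyp46a1 to 0.35 for Ebp, with 15 above 0, 17 below and a median of -0.01. Over all 13544 genes at that count the median was 0.00, and the 5th and 95th percentiles were -0.29 and 0.34. None of the 32 passed 1.5-fold in either direction, against 1.54% of all genes higher in pup 2 and 0.465% lower. None passed 2-fold (background 0.413% higher and 0.0591% lower). At a lower limit, 0.32 on the log2 scale, 1 of the 32 was higher in pup 2 (background 5.35%) and none was lower (background 3.39%). That gene was Ebp (chrX:8185329-8193512, minus strand, GRCm38), 1.28-fold higher in pup 2, with 951 counts in pup 2 and 507 in pup 1 at the depths above. By TPM the log2 ratio of Ebp was 0.22, and its deposited TPM intervals overlapped between the pups. Msmo1 followed, with a log2 ratio of 0.30, from 5517 counts in pup 2 and 3053 in pup 1. Insig1 had 0.20, Cyp51 0.17 and Sc5d 0.17, and at the other end Scap had -0.12 and Npc1 -0.12. These ratios are relative to the bulk of genes: scaled to spike-in totals, the median of all genes was -0.29, that of the 32 was -0.30 and Ebp was at 0.06. The spike-in totals were only 603 counts in pup 2 and 335 in pup 1, so that scale is itself uncertain. Each pup is 1 library, so no test of these ratios could be made.

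**Figure D3:**
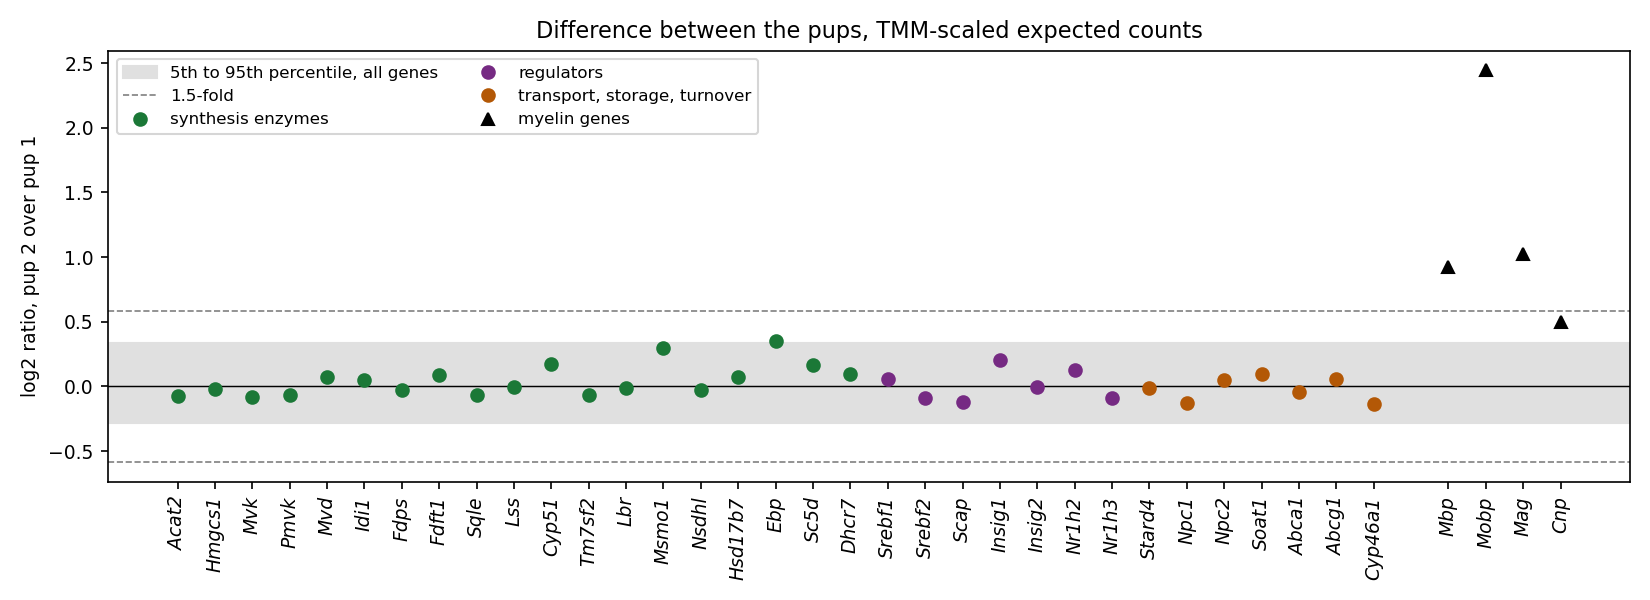
Log2 ratio of pup 2 over pup 1 (TMM-scaled counts) for each gene (circles) and for 4 myelin markers (triangles), with the 5th to 95th percentile of all genes as a band and 1.5-fold as dashed lines. Ebp, at 0.35, is the 1 cholesterol gene that lies outside the band from -0.29 to 0.34, which by definition leaves 5% of all genes beyond each edge.

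Markers of myelinating oligodendrocytes moved much further than the cholesterol genes. Of the 4 such markers with a mean count of at least 100, 3 passed 1.5-fold higher in pup 2, with a median log2 ratio of 0.97 over the 4. Mbp, the myelin basic protein gene, had 363 TPM in pup 2 and 183 TPM in pup 1, and Mag, the myelin-associated glycoprotein gene, had 31.3 TPM in pup 2 and 16.04 TPM in pup 1. Over the same pups the 19 sterol enzymes summed to 1684 TPM in pup 2 and 1735 TPM in pup 1. The part of the myelin markers in the ratios of Ebp, Msmo1 or other genes was not tested.

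The deposited TPM intervals did not overlap between the pups for 13 of the 32 genes (40.6%), against a background of 23.6%. Of these, 4 were higher in pup 2 and 9 were lower. TPM ran lower in pup 2 than TMM-scaled counts by 0.07 on the log2 scale. After this shift was removed 8 of the 32 were apart (25%), near the background of 22.8%, 7 of them among the 13 and Fdft1 in addition. Neither background was matched for counts. Fdft1, Cyp51, Msmo1, Sc5d and Insig1 were then higher in pup 2, and Srebf2, Scap and Npc1 were lower. For 6 of the 33 the TPM itself lay outside its own interval in at least 1 pup, a count for which no background share was computed. The intervals cover read assignment and counting within a library, not differences between animals.

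Transcript shares showed how each gene's TPM was divided among the transcripts that were quantified. Of the 33 genes, 9 had 1 quantified transcript, whose share was 100% by construction, among them Hmgcs1, Fdps, Srebf2, Scap and Insig1. Forms outside the deposited set were not measured. For Fdps, GENCODE M21 transcripts held 4546 distinct stretches of 100 bases, while the quantified Fdps-201 has 1241 bases. Of the 24 genes with several transcripts, 9 had a transcript at 90% or more of the gene's TPM in both pups, among them Acat2, Idi1, Sqle, Cyp51, Abca1 and Abcg1. No background share was computed for the genes with 1 transcript or for those at 90% or more. The leading transcript was the same in both pups for 19 of the 24. It differed for Srebf1, Hsd17b7, Npc1 and Soat1 among the 23 with a mean TPM of at least 5 (17.4%, against a background of 8.17%), and for Nr1h3 below that level. Over protein-coding transcripts only, the leading transcript was the same for 22 of the 24 and differed for Soat1 and Nr1h3. Npc1, Abca1, Abcg1, Cyp51 and Nsdhl had 1 coding transcript each, so in that count they could not differ. By expected counts, Srebf1-201, Hsd17b7-201, Npc1-201 and Soat1-207 each held the most of their gene's counts in both pups.

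Among the genes with a mean TPM of at least 5, Npc1 showed the widest shift. The full-length Npc1-201 took 60.0% of the gene's TPM in pup 2 and 43.1% in pup 1. Npc1-203, a processed transcript of 352 bases, took 35.3% in pup 2 and 52.2% in pup 1, so it led in pup 1 only. That short form held 52.4 counts in pup 2 and 75.6 in pup 1, which is 2.65% of the gene's counts in pup 2 and 5.15% in pup 1. The coding level of Npc1 was 13.2 TPM in pup 2 and 14.3 TPM in pup 1. On the log2 scale the gene's difference was -0.59 by TPM and -0.12 by counts, the same direction with a different size.

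Srebf1 had a similar short form. Srebf1-204, a processed transcript of 367 bases, took 29.1% of the gene's TPM in pup 2 and 38.9% in pup 1 with 93.0 counts in pup 2 and 93.7 in pup 1. Among coding forms, Srebf1-201 took 36.5% in pup 2 and 30.1% in pup 1. Srebf1-207, which starts 12116 bases downstream of the gene's first start, took 25.6% in pup 2 and 19.5% in pup 1. Srebf1-201 thus led in pup 2 and the short noncoding form in pup 1. Without the noncoding forms Srebf1 stood at 29.7 TPM in pup 2 and 29.2 TPM in pup 1.

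Hsd17b7 was led by the processed transcript Hsd17b7-204 in pup 2, at 46.8% against 41.6% in pup 1, and by the coding Hsd17b7-201 in pup 1, at 41.2% in pup 2 and 49.6% in pup 1. Soat1 was led in pup 2 by Soat1-206, a coding form of 366 bases, with 29.9% in pup 2 and 13.4% in pup 1. That form held 30.3 counts in pup 2 and 7.10 in pup 1, whereas Soat1-201 took 29.0% in pup 2 and 42.3% in pup 1. The coding Soat1-207, of 8371 bases, took 27.4% in pup 2 and 32.2% in pup 1. It held most of the gene's counts in both pups, 69.5% in pup 2 and 67.0% in pup 1. Nr1h3 split completely: Nr1h3-202 took 66.1% in pup 2 and 0% in pup 1, and Nr1h3-201 took 0% in pup 2 and 89.0% in pup 1. With the posterior mean shares, which allow for uncertain read assignment, Nr1h3-202 had 29.0% in pup 2 and 16.6% in pup 1, and Nr1h3-201 had 13.3% in pup 2 and 27.3% in pup 1.

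**Figure D4:**
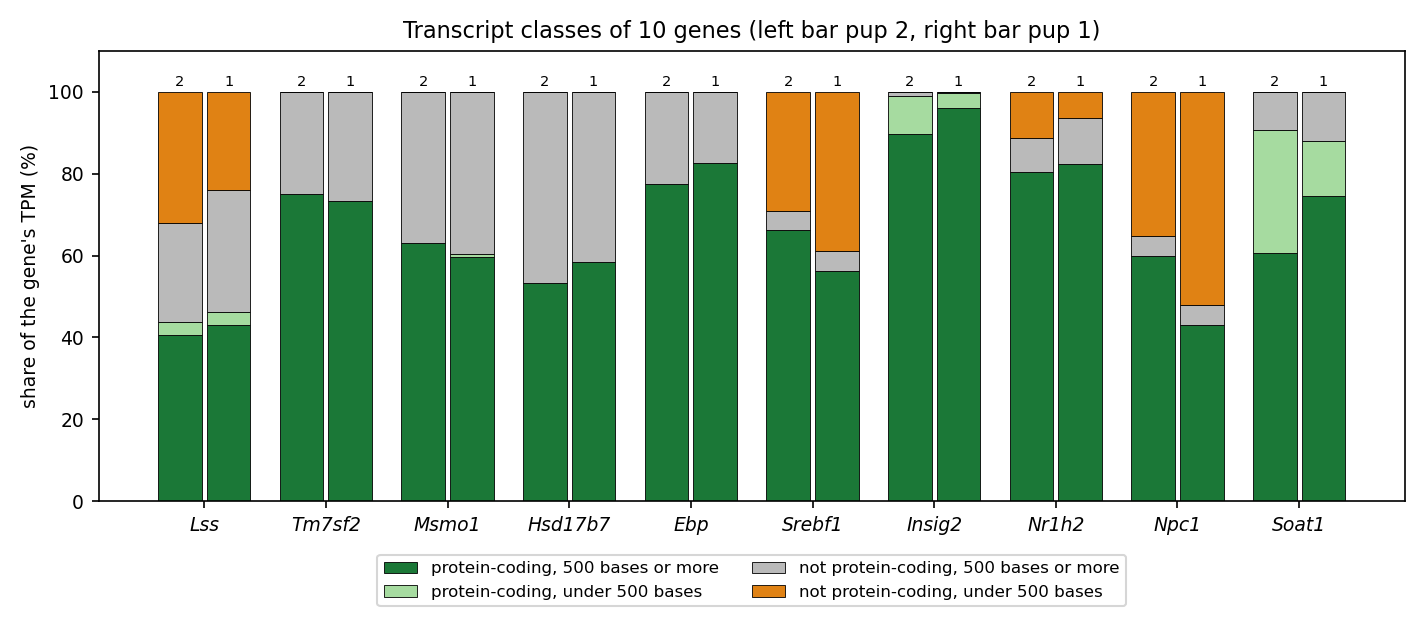
Share of the gene's TPM (percent) in 10 of the genes taken by protein-coding and noncoding transcripts, at least or under 500 bases long, with pup 2 as the left bar and pup 1 as the right. Lss, Msmo1, Hsd17b7, Srebf1 and Npc1 have under 70% in coding transcripts in both pups.

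Noncoding forms led in at least 1 pup for 3 of the 23 genes (13%, background 11.7%): Hsd17b7, Srebf1 and Npc1. Coding transcripts took under 70% of TPM in both pups for 5 of the 23 (21.7%, background 21.1%), so both shares were near the background. For Lss the coding share was 43.7% in pup 2 and 46.2% in pup 1, and Lss-205, a retained-intron form of 425 bases, took 22.1% in pup 2 and 24.1% in pup 1. The coding level of Lss was 12.6 TPM in pup 2 and 11.8 TPM in pup 1. For Msmo1 the coding share was 63.1% in pup 2 and 60.4% in pup 1, with the processed transcript Msmo1-206 at 32.8% in pup 2 and 35.4% in pup 1. For Ebp, the coding Ebp-201 took 47.4% in pup 2 and 44.8% in pup 1. Nr1h2 divided its TPM among several coding forms, of which Nr1h2-204 led with 35.3% in pup 2 and 31.4% in pup 1. Insig2 did so too, with Insig2-201 at 38.8% in pup 2 and 46.2% in pup 1 and Insig2-208 at 35.5% in pup 2 and 39.0% in pup 1.

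**Figure D5:**
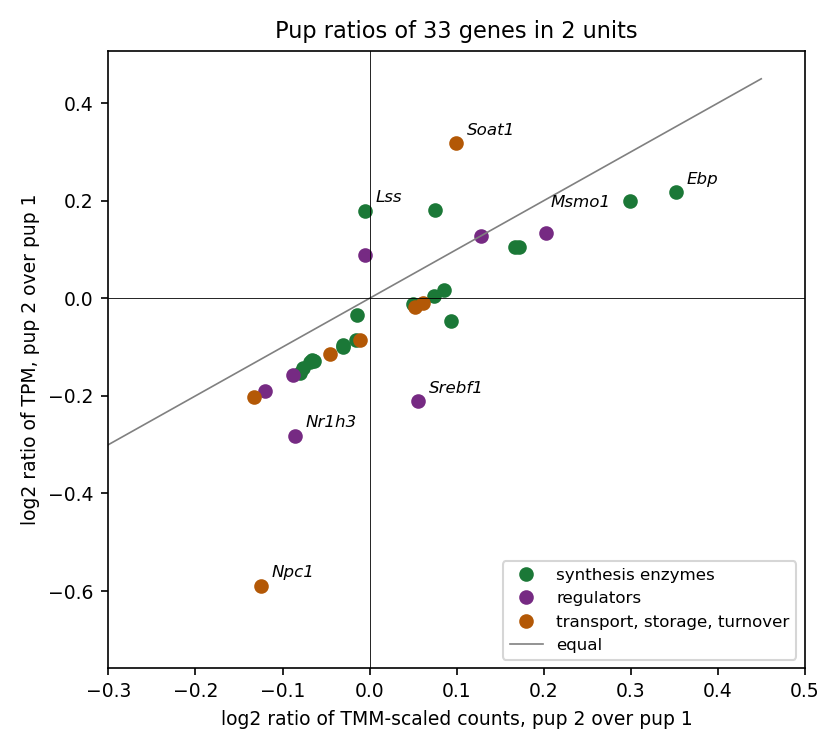
Log2 ratio of pup 2 over pup 1 by TPM (vertical axis) against the same ratio by TMM-scaled counts (horizontal axis), 1 point per gene, coloured by class. Npc1, at -0.59 by TPM and -0.12 by counts, lies farthest below the line of equal ratios.

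Some of the genes share sequence with other genes. The search took all GENCODE M21 transcripts of a gene, including forms outside the deposited quantification. For Scap it covered 7575 stretches of 100 bases, while the 1 quantified transcript has 4275 bases. The shares below therefore do not give the part of a deposited level that rests on shared sequence. A transcript stretch of 100 bases was shared with another gene for 13 of the 33, and at least 5% of stretches were shared for 7. Acat2 shared 28.9% with Acat3, which held 35.0 counts in pup 2 and 19.4 in pup 1, few beside its own. Fdft1 shared 18.3%, mostly with the opposite-strand Ctsb, a lysosomal protease gene with 21731 counts in pup 2 and 14660 in pup 1. Idi1 shared 15.8% with Gm13502, which held 127 counts in pup 2 and 42.5 in pup 1. Tm7sf2 shared 7.92% with Vps51, Lbr 6.94% with Dnah14, Scap 6.59% with 5830462I19Rik and Fdps 5.32%, mostly with Gm3571. The share of all genes with such stretches, or with an overlapping gene, was not computed, so these counts describe the 33 only. Another gene overlapped 15 of the 33, and 11 had an opposite-strand overlap, 6 of them with a protein-coding gene: Mvd with Gm20388, Fdft1 with Ctsb, Cyp51 with Akap9, Lbr with Dnah14, Srebf1 with Rai1 and Npc1 with Rmc1. Of these neighbours, Gm20388 held 0 counts in pup 2 and 0.03 in pup 1, and Dnah14 held 0 in both. The levels of the other genes overlapped on the opposite strand are uncertain to that extent, since the strand setting of the counting is not given in the sources used here. Vps51 lies on the same strand as Tm7sf2 and held 2852 counts in pup 2 and 1934 in pup 1, so the strand setting would not separate them.

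Other genes of sterol supply and disposal were lower on the whole than the 33. Of 37 listed, 36 matched a row, 33 reached a TPM of 1 in both pups and 25 a TPM of 10, and the median of the matched genes was 14.7 TPM, against 43.2 TPM for the 33. The lists differ in make-up, since 19 of the 33 are synthesis enzymes. The 7 transport genes among the 33 had a median of 23.5 TPM. The highest was Acly, which makes cytosolic acetyl-CoA, with 96.0 TPM in pup 2 and 106 TPM in pup 1. Gramd1a, a carrier of plasma membrane cholesterol, had 75.4 TPM in pup 2 and 90.6 TPM in pup 1, and Lrp1, a lipoprotein receptor, had 69.1 TPM in pup 2 and 89.2 TPM in pup 1. The lowest were Soat2, the second cholesterol acyltransferase, with 0.17 TPM in pup 2 and 0.05 TPM in pup 1, Gramd1c with 0.84 TPM in pup 2 and 0.97 TPM in pup 1, and Ch25h, a cholesterol hydroxylase, with 1.11 TPM in pup 2 and 0.96 TPM in pup 1. None of the 32 with a mean count of at least 100 passed 1.5-fold between the pups, and their median log2 ratio was -0.01.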

How the data were processed

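Total RNA libraries of 2 pups, 1 each, were analysed as 1 group. Per the labels, 10 ng of RNA longer than 200 bases, with spike-ins, was used for each library. How RNA was primed, the aligner and the strandedness of counting: not given in the sources used here. Per the file headers, the deposited tables hold expected counts (estimated read numbers), TPM, posterior mean values of both, interval bounds for TPM, which were handled as a signal, and the percent of a gene's TPM in each transcript. The column names are those that RSEM writes, and the deposited notes name mm10 and GENCODE M4. In the authors' deposited TPM, the effective length is the length minus 99 bases, so a read on a short transcript weighs heavily.

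GENCODE M21 on GRCm38, the build of mm10, supplied names, biotypes and positions. Spike-in and phiX rows (97, with 603 counts in pup 2 and 335 in pup 1) were left out of library sizes. Expected counts were rounded, and TMM factors came from edgeR 4.0.16 in R 4.3.3, over genes averaging 10 counts or more. Log2 ratios used a prior count of 2 and genes averaging 100 counts or more. DESeq2 1.42.0 gave alternative size factors. The remaining work was done in Python 3.11.15 with pandas 2.3.3, numpy 2.4.6 and matplotlib 3.10.9. The computation of the ratios was checked on simulated counts with known fold changes. With 1 library per pup, no statistical test between the pups was made. SDs over 2 pups describe these litter mates, and no value shows spread beyond the litter.

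The 33 genes, their classes, the 37 other pathway genes and the marker lists were chosen with earlier results of these data known. Every gene of the 33 was named, with values per pup. A few genes of the other lists are not reported here and were left out of their counts and sums. Promoter windows and their sequences are RefSeq's on GRCm38.p6.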

Additional observations from a re-analysis of the deposited data

How the results depend on the processing

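The median level of 43.2 TPM was 46.7 with posterior mean TPM, 65.3 over enzymes, 23.5 over transport genes and 37.8 over protein-coding transcripts (added after seeing the data), and 42.0 to 44.5 from either pup alone. Without division by length, Insig1 to Insig2 was 2.31, Srebf2 to Srebf1 3.27, Lbr to Tm7sf2 0.842 and Abca1 to Abcg1 1.19, which turns the order of the last pair. With posterior mean TPM, Insig1 to Insig2 was 1.305, Srebf2 to Srebf1 1.54, Nr1h2 to Nr1h3 16.7 and Lbr to Tm7sf2 0.323. Over protein-coding transcripts, Srebf2 to Srebf1 was 2.65, Lbr to Tm7sf2 0.376 and Npc2 to Npc1 2.98.

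Scaled to spike-in totals, the median log2 ratio was -0.30, with all genes' median at -0.29, and 13 of the 32 ratios changed sign. Those totals were only 603 counts in pup 2 and 335 in pup 1, so that scale is itself uncertain. No ratio changed sign under library totals, DESeq2 size factors, other prior counts or posterior mean counts. At the lower limit, 0.32 on the log2 scale, 1 gene was higher in pup 2. Intervals were apart for 8 genes after scaling, against 13 before, with 7 in common. The leading transcript was the same in both pups for 19 genes over all transcripts and for 22 over protein-coding transcripts. The latter count includes genes with 1 coding transcript, Npc1 among them, which could not differ. The sterol element was found in 0 genes in its stricter form and in 3 as TCACNCCA. The causes of these moves were not tested.

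No paired analysis was possible because the series has 1 group. The ratios between the pups need both libraries, so leaving out a pup gives no value. Depth limits Nr1h3, with 76 counts in pup 2 and 55 in pup 1, and the short transcripts.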
